A study of Mus musculus with 9 samples.

Results

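The extracellular proteases of the lung matrix and their inhibitors are described here: the matrix metalloproteinases (Mmp genes), the ADAMTS proteases (Adamts genes) and the tissue inhibitors of metalloproteinases (Timp genes). Members were all rows with a matching gene symbol, in families chosen with earlier results of these data known. The 45 rows found among 21930 genes comprised 22 Mmp, 19 Adamts and 4 Timp genes. Of these, 39 had 10 or more counts in at least 3 libraries and are described below, 17 Mmp, 18 Adamts and 4 Timp genes, and all 39 were tested. The 6 that did not were Mmp1b, Mmp20 and Adamts16, with 0 reads in all 9 libraries, and Mmp7, Mmp10 and Mmp21. Mmp7, the epithelial matrilysin, had 15, 13 and 3 reads in control libraries 1 to 3, 0 in each LPS library and 0, 3 and 2 in the libraries of LPS with RSBD, where 0 reads in a library allow up to 3 (counting error only). Mmp24 reached 10 reads in control libraries only, so it was bound to appear lower elsewhere, and counts over the 39 members carry that bias. Of the 39 members, 34 had 10 or more reads in all 9 libraries.

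The libraries come from whole lungs of C57BL/6 mice, 3 per group, given by the labels as males aged 6 to 8 weeks. Control mice received sterile saline in the trachea. LPS mice received lipopolysaccharide, the bacterial outer membrane component that triggers acute lung injury, at 2 mg/kg with vehicle afterwards, and LPS+RSBD mice the same LPS followed by an oral decoction of Renshen Baidu Powder (RSBD), a Chinese herbal formula. All mice were anaesthetised with tribromoethanol for the instillation. Gavage began 24 hours after LPS and is given as 5 daily doses, with lungs taken on day 5, so how many doses had been received is unclear. Whether control mice were gavaged with vehicle is not stated separately. The design asks which transcripts LPS alters and whether RSBD alters them further. Libraries are called control 1 to 3, LPS 1 to 3 and RSBD 1 to 3.

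Library totals ran from 26959662 to 36113905 counts, and the members took 0.22% to 0.302% of them. Genes defining the alveolar epithelium, the tissue's label, were present in every library at a summed 11410 to 17720 CPM (counts scaled to library size with TMM factors), with 10 of 10 listed genes detected. The control libraries went against the labels on 1 point. Chromosome Y genes had 6, 7 and 9 reads in control libraries 1 to 3 and 7511 to 10918 in the other libraries, although all mice are labelled male. In every comparison with control, the treatment and the presence of chromosome Y transcripts cannot be told apart. In whole lung, fewer cells of a type and less RNA per cell cannot be told apart either.

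Matrix metalloproteinases are zinc-dependent enzymes made as inactive precursors that, between them, cut most components of the extracellular matrix, along with cytokines and cell surface proteins. Collagenases, gelatinases, stromelysins, an elastase of macrophages and membrane-bound members are distinguished by substrate and structure. ADAMTS proteases are secreted relatives with thrombospondin repeats, which trim procollagens, cut the proteoglycans aggrecan and versican, cut von Willebrand factor or bind the fibrillin microfibrils. TIMPs are small secreted proteins that block the active site of these enzymes, and TIMP3 is the one that stays bound to the matrix and inhibits ADAMTS proteases as well. In the inflamed lung, neutrophils release stored collagenase and gelatinase, and macrophages secrete elastase.

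A run of 9 members, Mmp13, Mmp12, Mmp1b, Mmp3, Mmp10, Mmp8, Mmp27, Mmp20 and Mmp7 in that order, lies within 427 kb of chromosome 9 (7272514 to 7699585, GRCm38). These neighbours share a promoter feature that the choice of members did not use. The letters TGANTCA, a binding sequence of the AP-1 (Fos and Jun) factors that reads alike on both strands, occurred within 250 bases before a RefSeq start of 7 of the 9. They occurred in 0 of the 22 other members found in the promoter table, which held 31 of the 45 members, and in 6.75% of all 32851 promoters. A match is a description of letters and shows no binding. The stretches around the match are shown from the promoter table of RefSeq (GRCm38.p6), 5′ to 3′ on the gene's strand with 20 bases on either side, because they include both chromosome 9 members that differed between LPS and control lungs, Mmp3 and Mmp12. Capitals mark the match.
Mmp3 (chr9:7445756-7445802, plus strand): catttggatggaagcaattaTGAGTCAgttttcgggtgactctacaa
Mmp12 (chr9:7347310-7347356, plus strand): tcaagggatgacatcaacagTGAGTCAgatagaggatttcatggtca
Mmp13 (chr9:7272459-7272505, plus strand): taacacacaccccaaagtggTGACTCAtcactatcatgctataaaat
Mmp10 (chr9:7502259-7502305, plus strand): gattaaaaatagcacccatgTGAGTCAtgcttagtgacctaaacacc
Mmp7 (chr9:7692007-7692053, plus strand): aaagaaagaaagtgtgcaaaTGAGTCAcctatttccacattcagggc
Mmp1b (chr9:7388093-7388139, minus strand): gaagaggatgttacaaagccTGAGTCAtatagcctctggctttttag
Mmp20 (chr9:7628116-7628162, plus strand): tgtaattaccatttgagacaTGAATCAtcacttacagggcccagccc

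The match began 46 bases before the start of Mmp3, 44 before that of Mmp12, 35 before that of Mmp13, 63 before those of Mmp10 and Mmp7, 93 before that of Mmp1b and 95 before that of Mmp20. RefSeq lists another start for each of Mmp12 and Mmp7, before which the letters do not occur. For Mmp12 this other start is the one near the annotated gene start (7344381, stretch 7344147 to 7344396). The Mmp12 match lies before a start inside the gene. For Mmp7 the other start lies downstream. The 2 cluster members without the letters were Mmp8 and Mmp27. The letters did not go with a level or a direction: Mmp1b and Mmp20 had 0 reads in all libraries, Mmp13 was low, and Mmp3 and Mmp12, whose promoters follow at full length for comparison, differed from control in opposite directions.
Mmp3 (chr9:7445572-7445821, plus strand): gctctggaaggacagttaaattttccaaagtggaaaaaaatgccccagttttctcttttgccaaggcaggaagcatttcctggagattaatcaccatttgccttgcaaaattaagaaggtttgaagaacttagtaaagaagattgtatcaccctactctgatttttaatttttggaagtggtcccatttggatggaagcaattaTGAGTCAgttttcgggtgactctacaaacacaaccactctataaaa
Mmp12 (chr9:7347124-7347373, plus strand): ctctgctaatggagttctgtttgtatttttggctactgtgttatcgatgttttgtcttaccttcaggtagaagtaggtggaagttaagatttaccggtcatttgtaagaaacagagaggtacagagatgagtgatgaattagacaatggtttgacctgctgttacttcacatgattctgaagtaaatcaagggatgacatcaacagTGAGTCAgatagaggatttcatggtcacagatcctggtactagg

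The inhibitors Timp3 and Timp2 were the most abundant members per transcript length, whereas Timp1 (8.66 TPM) and Timp4 (2.09 TPM) ranked 17 and 25 of 39. In TPM, the length-corrected level deposited by the authors, the mean over 9 libraries was 361 for Timp3 and 201 for Timp2, followed by Adamts10 with 129, Mmp9 with 106, Mmp8 with 89.1, Mmp15 with 44.5 and Mmp14 with 39.2. Of the 39 members, 4 had a mean TPM of at least 100, 16 of at least 10 and 27 of at least 1, the last including 12 of 17 Mmp, 11 of 18 Adamts and all 4 Timp genes. Timp3 took 55.3% to 70.4% of the summed TPM of the Timp genes and Adamts10 47.8% to 70.2% of that of the Adamts genes. No Mmp gene held such a share throughout, and the 2 leading ones varied most: Mmp9 took 8.96% to 36.3% and Mmp8 3.43% to 36.5%.

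Summed over the family, Mmp genes measured 379.6, 350.3 and 475.1 TPM in control libraries, 757.3, 563.2 and 325.4 TPM in LPS libraries and 271.3, 288.3 and 343.6 TPM in RSBD libraries. The Timp sums were 634.6, 698 and 699.8 TPM in control, 577.7, 434.2 and 435.3 TPM in LPS and 600.6, 553.3 and 517.5 TPM in RSBD libraries. The Mmp sum, without the Adamts proteases, exceeded the Timp sum in 2 of 9 libraries, LPS 1 and LPS 2. It lay below the Timp sum in LPS 3 as in all control and RSBD libraries. A sum of both protease families was not set against the Timp sum. Adamts sums were 245.9, 293.4 and 247.7 TPM in control, 252.9, 165.7 and 167 TPM in LPS and 196.5, 202.9 and 168 TPM in RSBD libraries.

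**Figure D1:**
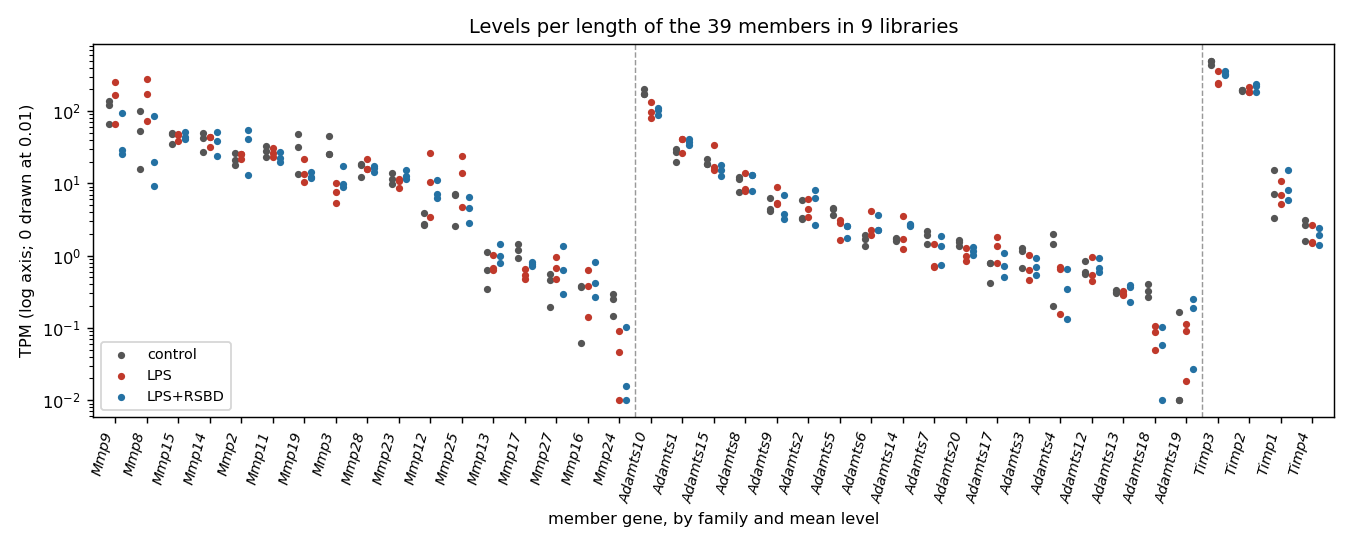
Level of each of the 39 members per transcript length (TPM, log axis) in 9 libraries, 1 point per library coloured by group, with Mmp, Adamts and Timp genes separated by dashed lines and ordered by mean. Timp3, Timp2 and Adamts10 sit at the top and spread less than Mmp8 and Mmp9, which spread most among the abundant members.

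Between LPS and control lungs, 2 members rose and 4 fell. Fold changes below are log2 ± SE from an edgeR quasi-likelihood fit of all 9 libraries, and p-values are adjusted by the Benjamini-Hochberg method over the 15636 genes tested, with calls made under 0.05. Mmp12 and Adamts1 rose, and Mmp3, Mmp17, Adamts10 and Timp3 fell. The 6 calls are 15.4% of the 39 members, against 17.4% of all genes called in this comparison (8.79% higher and 8.63% lower). The members' median log2 change was 0.07, and that of all genes tested -0.01. The groups did not overlap for 14 members (35.9%), 5 higher and 9 lower in LPS, against 38.0% of all genes. Both shares were close to those of all genes.

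**Figure D2:**
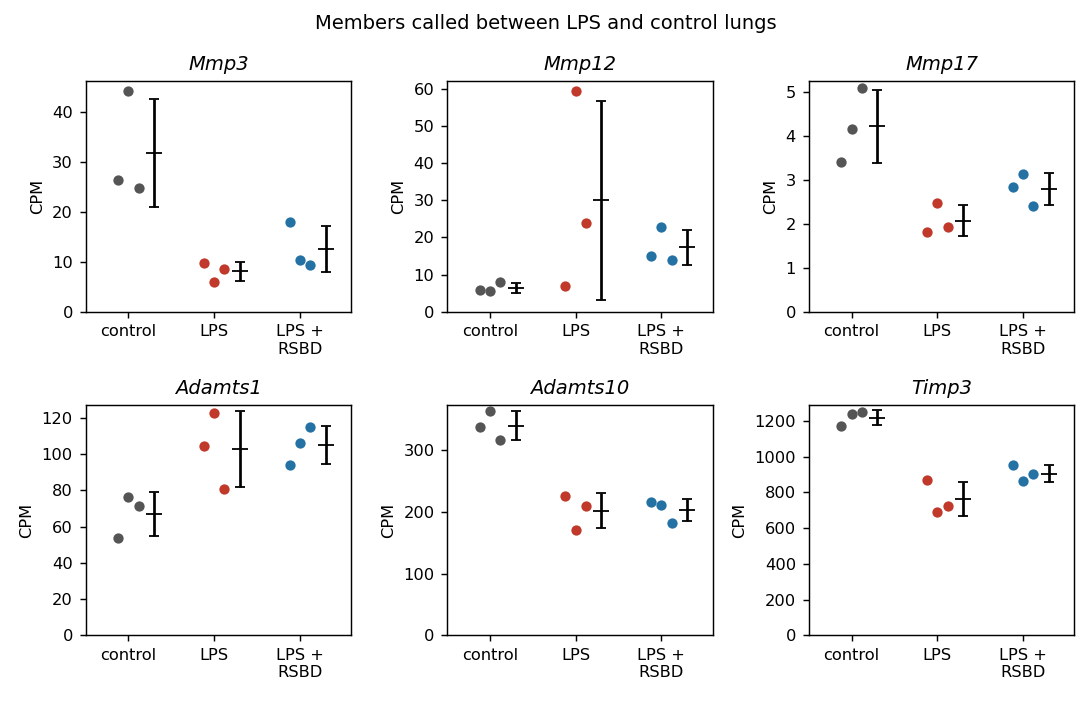
CPM of the 6 members called between LPS and control lungs, 1 point per library, with the mean and SD of each group (n = 3) to its right. Mmp3, Mmp17, Adamts10 and Timp3 lie below control in all LPS and RSBD libraries, and the Mmp12 mean in LPS rests on LPS 2.

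Mmp3, stromelysin-1, an enzyme of stromal cells that cuts proteoglycans and fibronectin and activates other Mmp precursors (chromosome 9, 7445822 to 7455975), showed the largest decrease among the called members. It measured 26.4, 44.2 and 24.7 CPM in control libraries, 9.70, 5.91 and 8.61 CPM in LPS libraries and 17.9, 10.3 and 9.42 CPM in RSBD libraries. Every control library lay above every library of the other groups, and RSBD 1 was the highest among the latter. Mmp3 fell by 1.98 ± 0.32 in LPS against control (edgeR adjusted p = 0.00688), a call kept under all 19 alternatives. It fell by 1.34 ± 0.31 in LPS+RSBD against control (adjusted p = 0.0493), a call lost under 15 of 19 alternatives, among them those leaving out any library except RSBD 1 (highest adjusted p = 0.163, without RSBD 2). The summed level of 8 mesothelial genes was also lower than control in both treated groups. It was 295 to 334 CPM in control, 219 to 262 CPM in LPS and 188 to 253 CPM in RSBD libraries. Of these genes, 1 of 8 was called between LPS and control and 0 were at zero. Krt19, at 95.6 to 163 CPM, had the largest part of this sum in every library. Upk3b, Lrrn4 and Bnc1 did not follow the sum in LPS 1, their highest library (24.2, 9.73 and 2.64 CPM). For these genes LPS 2 and LPS 3 lay below every control library. Between LPS+RSBD and LPS, Mmp3 differed by 0.64 ± 0.32 (adjusted p = 0.578), while 7 of the 8 mesothelial genes had negative differences (median -0.49, 0 called). Fibroblast genes summed to 2289 to 2842, 2410 to 3116 and 2099 to 2796 CPM, groups that overlapped, with 2 of 11 rising between LPS and control. The list of 14 immediate early genes includes the AP-1 genes Fos and Jun and the heat shock genes Hspa1a and Hspa1b. It summed to 977 to 1026 CPM in control, 721 to 762 CPM in LPS and 957 to 1215 CPM in RSBD libraries, with 6 falling between LPS and control. Fos measured 63.4, 41.5 and 35.4 CPM in control, 19.95, 27.95 and 20.1 CPM in LPS and 53, 64.4 and 68.2 CPM in RSBD libraries. The RSBD libraries thus lay above all LPS libraries for Fos, while Mmp3 stayed below control in both treated groups. Jun overlapped, at 242, 232 and 266 CPM in control and 231, 204 and 235 CPM in LPS libraries. RSBD libraries had 221, 219 and 241 CPM of Jun. The part of the mesothelium or of the immediate early genes in the Mmp3 difference was not tested.

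Mmp12, the macrophage elastase (chromosome 9, 7344381 to 7369499), measured 5.88, 5.48 and 7.90 CPM in control libraries, 6.84, 59.3 and 23.9 CPM in LPS libraries and 15, 22.8 and 14 CPM in RSBD libraries. LPS 1 lay within the control range, LPS 2 was the highest of all libraries, and the RSBD libraries lay above control without overlap. Mmp12 rose by 2.23 ± 0.63 in LPS against control (edgeR adjusted p = 0.0411), but without LPS 2 the difference was 1.27 (adjusted p = 0.135). The call was lost under 14 of 19 alternatives, including a fit with the replicate number as a block (1.88, adjusted p = 0.0926). In LPS+RSBD against control the difference was 1.43 ± 0.62 (adjusted p = 0.209) and in LPS+RSBD against LPS -0.80 ± 0.59 (adjusted p = 0.72). Alveolar macrophage genes, which resident cells express, summed to 1309 to 1677 CPM in control, 1957 to 3910 CPM in LPS and 1019 to 1941 CPM in RSBD libraries, with 5 of 10 rising between LPS and control, 2 of 10 (Itgax and Mrc1) rising between LPS+RSBD and control, and 0 at zero. Chil3 made up most of this sum. Without it, a choice made after its level was seen, the other 9 genes summed to 334, 365 and 348 CPM in control, 477, 701 and 651 CPM in LPS and 451, 583 and 496 CPM in RSBD libraries, so that both treated groups lay above control. Genes of recruited monocytes and macrophages summed to 1044 to 1118, 1066 to 1730 and 1059 to 1232 CPM, with 3 of 12 rising. LPS 2 was first and LPS 3 second of the 9 libraries by the alveolar macrophage sum, with or without Chil3, and by Mmp12. LPS 1 ranked 3 by the sum, 5 by the sum without Chil3 and 7 by Mmp12. The part of macrophage number in the Mmp12 difference was not tested. Mmp12 shares 157 exonic bases with Mmp1b on the opposite strand, and Mmp1b had 0 reads. The last of the group, Mmp11, a stromelysin of stromal cells, measured 24.4 to 38.8 CPM over all libraries and was called in 0 comparisons.

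Mmp8, the neutrophil collagenase (chromosome 9, 7558456 to 7568485), Mmp9, gelatinase B, stored in neutrophil granules and also made by macrophages and epithelium (chromosome 2, 164940780 to 164955850), and Mmp25, a membrane-anchored protease of leukocytes (chromosome 17, 23628311 to 23645277), followed a shared pattern. Their levels were highest in LPS 1 and LPS 2, while LPS 3 lay within the control range, and the groups overlapped in every comparison. Mmp8 measured 73.7, 20.7 and 130 CPM in control libraries, 352, 253 and 109 CPM in LPS libraries and 13, 28 and 124 CPM in RSBD libraries. Mmp9 measured 244, 110 and 203 CPM, then 408, 316 and 130 CPM, then 52.1, 47.5 and 177 CPM in the same order. Mmp25 measured 17.1, 6.24 and 17.5 CPM, then 55.9, 38.1 and 13.5 CPM, then 7.40, 12.2 and 17.2 CPM. RSBD 3 was the highest RSBD library for each of the 3 genes, and control 2 the lowest control library.

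The differences between LPS and control were 1.68 ± 0.86 for Mmp8, 0.62 ± 0.57 for Mmp9 and 1.40 ± 0.55 for Mmp25 (edgeR adjusted p = 0.203, 0.478 and 0.106). Between LPS+RSBD and LPS these 3 genes had the largest differences of the 39 members, -2.12 ± 0.88 for Mmp8, -1.63 ± 0.58 for Mmp9 and -1.55 ± 0.55 for Mmp25 (adjusted p = 0.511, 0.459 and 0.452). Their unadjusted p-values in that comparison were 0.0386, 0.0206 and 0.0197. The neutrophil list of 11 genes, among them S100a8, Ly6g and Retnlg, moved with them, with 0 genes at zero. It summed to 1976, 814 and 2179 CPM in control, 6983, 6505 and 2502 CPM in LPS and 987, 686 and 3222 CPM in RSBD libraries. Of its genes, 2 rose between LPS and control and 0 were called between LPS+RSBD and LPS. LPS 1 was first and LPS 2 second of the 9 libraries by this sum and by each of the 3 proteases. The part of neutrophil number in these values was not tested.

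**Figure D3:**
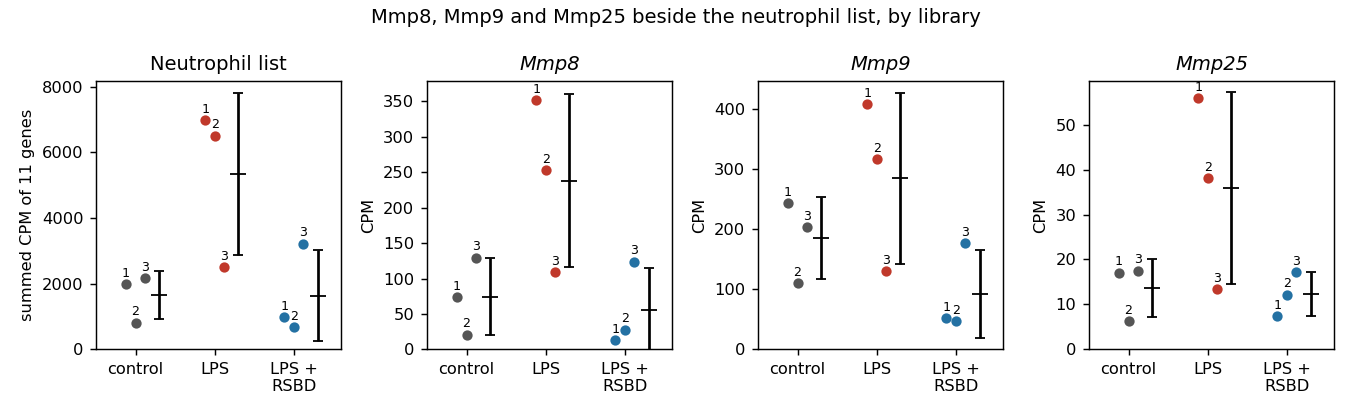
Summed CPM of the 11 neutrophil genes and CPM of Mmp8, Mmp9 and Mmp25 by group, with the library number above each point and the mean and SD (n = 3; bars end at 0) to the right. LPS 1 and LPS 2 are the 2 highest libraries in all panels, and LPS 3 lies below both.

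Of the remaining collagenase and gelatinase genes, Mmp13, an interstitial collagenase, was rare, at 0.51 to 2.26 CPM. Mmp2, gelatinase A of fibroblasts (chromosome 8, 92827291 to 92853420), measured 31.2, 42.9 and 34.1 CPM in control, 33.8, 48.1 and 48.6 CPM in LPS and 71.4, 96.9 and 23.9 CPM in RSBD libraries. RSBD 1 and RSBD 2 were its highest libraries and RSBD 3 its lowest. Its difference between LPS+RSBD and control was 0.83 ± 0.41 (edgeR adjusted p = 0.266) and, without RSBD 3, 1.22 (adjusted p = 0.0171). Smooth muscle and pericyte genes had the same order within the RSBD group, at 925, 981 and 526 CPM in RSBD 1 to 3. Fibroblast genes were also lowest in RSBD 3 within that group, at 2796, 2685 and 2099 CPM in RSBD 1 to 3. The part of either list in the Mmp2 values was not tested.

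Among the membrane-type enzymes, Mmp14, which activates the Mmp2 precursor together with TIMP2, measured 33.8 to 75.8 CPM and Mmp15 97.1 to 143 CPM over all libraries, and neither was called in any comparison. Their differences between LPS and control were 0.13 ± 0.29 and 0.07 ± 0.13 (edgeR adjusted p = 0.797 and 0.751). Mmp17, a membrane protease with a lipid anchor (chromosome 5, 129584169 to 129611099), measured 3.41, 4.17 and 5.09 CPM in control, 1.82, 2.48 and 1.93 CPM in LPS and 2.85, 3.13 and 2.40 CPM in RSBD libraries. Control libraries were the 3 highest, and LPS and RSBD libraries overlapped. Mmp17 fell by 1.02 ± 0.25 in LPS against control (edgeR adjusted p = 0.0255). Leaving out control 2, control 3 or an LPS library, whichever of the 3, ended the call (adjusted p of up to 0.0871), and its difference in LPS+RSBD against control was -0.59 ± 0.25 (adjusted p = 0.19). Mmp16 and Mmp24, better known from the nervous system, had at most 1.61 and 0.70 CPM. Mmp24 had 18, 22 and 10 reads in control, 0, 4 and 7 in LPS and 0, 9 and 2 in RSBD libraries (adjusted p = 0.168 between LPS and control), and 13.6% of its exonic bases overlap a gene on the opposite strand.

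Mmp19, a protease of epithelium and macrophages (chromosome 10, 128790910 to 128800824), was uneven in control lungs, at 25.7, 88.0 and 56.8 CPM, against 36.6, 26.4 and 21.1 CPM in LPS and 23.1, 27.8 and 21.5 CPM in RSBD libraries. Control 2 and control 3 were its highest libraries, and control 1 lay among the treated ones. Its differences from control were -1.02 ± 0.38 in LPS and -1.24 ± 0.38 in LPS+RSBD (edgeR adjusted p = 0.0923 and 0.102), and both were called without control 1 (adjusted p = 0.0185 and 0.0278). It shares 22.3% of its exonic bases with Tmem198b on the opposite strand. Mmp28, an epithelial protease, was steady at 21.2 to 35.2 CPM, as was Mmp23 at 5.94 to 11 CPM, while Mmp27 had 0.25 to 1.4 CPM. These 3 genes were called in 0 comparisons.

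**Figure D4:**
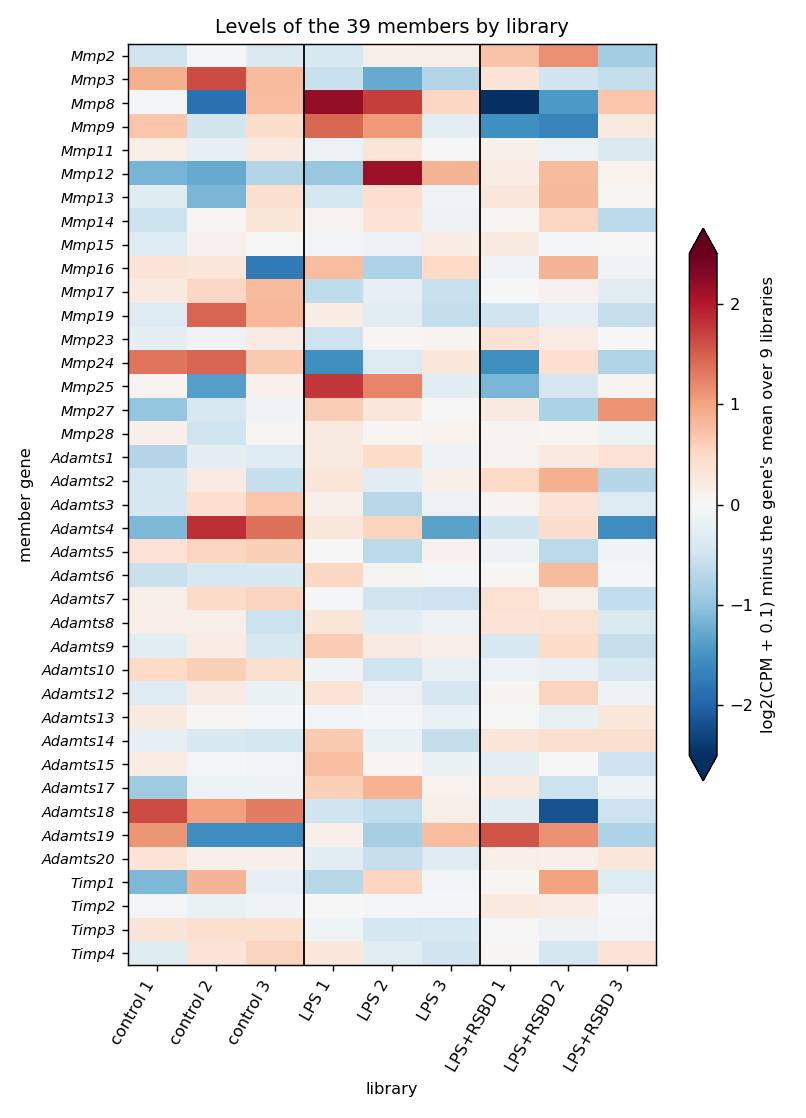
Level of each of the 39 members in each library as log2(CPM + 0.1) minus the gene's mean over the 9 libraries, with groups separated by black lines and the colour scale ending at 2.5 in either direction. Mmp8, Mmp9 and Mmp25 are high in LPS 1 and LPS 2, Mmp12 in LPS 2, and Mmp3, Adamts10, Adamts18 and Timp3 in the control libraries.

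Of the 18 Adamts genes, Adamts1 rose and Adamts10 fell between LPS and control. Adamts10, a protease that binds fibrillin microfibrils (chromosome 17, 33524204 to 33553782) and the most abundant of its family, measured 337, 364 and 317 CPM in control, 225, 170 and 210 CPM in LPS and 215, 212 and 182 CPM in RSBD libraries. All control libraries lay above all others, and the LPS and RSBD ranges overlapped. Relative to control it fell by 0.75 ± 0.12 in LPS and by 0.74 ± 0.12 in LPS+RSBD (adjusted p = 0.00557 and 0.0145, edgeR), comparisons that share the control libraries. The first call was kept under all 19 alternatives and the second lost under 3, among them without control 2 (adjusted p = 0.0578) and without RSBD 2 (adjusted p = 0.051). Adamts6, the close relative of Adamts10, went the other way: 5.95, 6.62 and 6.73 CPM in control, 12.5, 9.14 and 8.54 CPM in LPS and 8.97, 15.2 and 8.58 CPM in RSBD libraries, all treated libraries above all controls. In TPM, LPS 3 (1.904) lay just below control 3 (1.93) for Adamts6. The Adamts6 differences of 0.65 ± 0.24 and 0.76 ± 0.24 were not called (edgeR adjusted p = 0.0898 and 0.102), although DESeq2 called the second (adjusted p = 0.0397).

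Adamts1, a protease of aggrecan and versican made by endothelium and stroma (chromosome 16, 85793827 to 85803113), measured 53.5, 76.3 and 71.2 CPM in control, 105, 123 and 80.9 CPM in LPS and 94.0, 106 and 115 CPM in RSBD libraries. In CPM all treated libraries lay above all controls. In TPM, LPS 3 (26.6) lay below control 2 (29.6) and control 3 (27.4). Adamts1 rose by 0.62 ± 0.17 in LPS against control (edgeR adjusted p = 0.0365), a call lost under 9 of 19 alternatives. Among them were those leaving out any control library, LPS 1 or LPS 2 (highest adjusted p of these 0.123). The 3 limma fits on TPM also lost it (limma adjusted p = 0.105 to 0.149). Its difference in LPS+RSBD against control was 0.65 ± 0.17 (adjusted p = 0.0647, and 0.00809 with DESeq2). Endothelial genes summed to 3480 to 3805 CPM in control, 3740 to 4699 CPM in LPS and 3594 to 3950 CPM in RSBD libraries, with 3 of 10 rising and 0 at zero, and their part was not tested. Car4 of this list is also in the alveolar macrophage list. Within the LPS group the orders differed: LPS 2 had the highest Adamts1 level and the lowest endothelial sum. Its neighbour Adamts5, an aggrecanase 53 kb away on chromosome 16, differed in the opposite direction: 22.6, 25.5 and 26.5 CPM in control, 17.4, 10.9 and 19.0 CPM in LPS and 16.1, 10.9 and 16.3 CPM in RSBD libraries. The control group stood above all others, but the differences of -0.66 ± 0.22 and -0.78 ± 0.22 were not called (adjusted p = 0.0608 and 0.0735), although DESeq2 called both (adjusted p = 0.024 and 0.0107).

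The other proteoglycan-cleaving members did not pass the edgeR test. Adamts4, an aggrecanase, was irregular in control lungs at 0.53, 4.78 and 3.45 CPM, against 0.44 to 1.89 CPM in LPS and 0.36 to 1.74 CPM in RSBD libraries (-1.55 ± 0.82 in LPS+RSBD against control, edgeR adjusted p = 0.293). Adamts15 measured 41.0 to 98.1 CPM, with LPS 1 highest, Adamts8, 20 kb from it on chromosome 9, 14.8 to 27.6 CPM, and Adamts9 14.7 to 34.0 CPM. Adamts20 measured 4.40, 3.79 and 3.81 CPM in control, 2.82, 2.29 and 2.76 CPM in LPS and 3.92, 3.81 and 4.25 CPM in RSBD libraries. It was the 1 member whose LPS+RSBD and LPS groups did not overlap in CPM, with a difference of 0.61 ± 0.20 (adjusted p = 0.413). In TPM these groups overlapped, at 1.28, 0.84 and 0.98 in LPS and 1.31, 1.01 and 1.17 in RSBD libraries. The lowest difference under the alternatives was 0.0953. All LPS libraries also lay below all control libraries, a difference of -0.61 ± 0.20 that edgeR did not call and DESeq2 did (adjusted p = 0.0645 and 0.0337).

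Of the procollagen N-propeptidases, which trim fibrillar collagen precursors, Adamts2 measured 10.9 to 33.6 CPM, Adamts14 4.03 to 9.66 CPM and Adamts3 0.91 to 2.56 CPM, and none was called in any comparison. Adamts14 lay above control in all RSBD libraries, at 7.62, 8.16 and 8.18 CPM against 5.31, 4.71 and 4.52 CPM (0.72 ± 0.28, edgeR adjusted p = 0.162). Adamts13, which cuts von Willebrand factor and is made mostly in liver, stayed between 0.65 and 0.91 CPM. Adamts7 and Adamts12 are proteases of cartilage oligomeric matrix protein, and Adamts12 stayed between 2.33 and 4.68 CPM. Adamts7 measured 3.84, 4.84 and 5.12 CPM in control, 3.34, 2.42 and 2.40 CPM in LPS and 4.52, 3.84 and 2.22 CPM in RSBD libraries. All LPS libraries lay below all control libraries for Adamts7, a difference of -0.76 ± 0.29 that was not called (edgeR adjusted p = 0.0974). Adamts18 (chromosome 8, 113697126 to 113848738) had 37, 26 and 28 reads in control, 6, 6 and 11 in LPS and 10, 0 and 6 in RSBD libraries. All control libraries lay above all others, and the fitted differences of -1.92 ± 0.71 and -2.62 ± 0.74 were not called (adjusted p = 0.0859 and 0.0779). Adamts17 measured 4.31, 5.19 and 2.98 CPM in LPS against 1.48, 2.58 and 2.56 CPM in control (0.91 ± 0.33, adjusted p = 0.0796, and 0.0427 with DESeq2), and 1.90 to 3.35 CPM in RSBD libraries. Adamts19 had 0 to 28 reads per library.

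Among the inhibitors, Timp3 fell and the other Timp genes were not called. Timp3 (chromosome 10, 86300372 to 86349506) measured 1170, 1238 and 1247 CPM in control, 868, 692 and 725 CPM in LPS and 953, 862 and 901 CPM in RSBD libraries. The control libraries lay above all others, and RSBD 1 and RSBD 3 lay above the LPS libraries, with RSBD 2 just under LPS 1. Timp3 fell by 0.68 ± 0.11 in LPS against control (edgeR adjusted p = 0.00576), kept under all 19 alternatives with adjusted p of up to 0.034. Airway epithelial genes summed to 29210 to 41010 CPM in control, 20610 to 31210 CPM in LPS and 27690 to 35570 CPM in RSBD libraries. Scgb1a1 made up most of this sum in every library, and its groups overlapped. It measured 24850 to 37220 CPM in control, 17710 to 27130 CPM in LPS and 23670 to 30100 CPM in RSBD libraries. Between LPS and control 6 of 11 airway genes fell. Within the LPS group the orders differed: LPS 1 had the lowest airway sum and the highest Timp3 level. Of fibroblast and endothelial genes, 2 of 11 and 3 of 10 rose and 0 fell. Of smooth muscle and pericyte genes, 0 of 10 were called. The part of these cell types in the Timp3 difference was not tested. For Timp3 the difference in LPS+RSBD against control was -0.43 ± 0.11 (adjusted p = 0.0552) and in LPS+RSBD against LPS 0.25 ± 0.11 (adjusted p = 0.517). Against control it was called with DESeq2 (adjusted p = 0.00144), with only those groups in the fit (0.0451) and without LPS 1 (0.0224). Timp2, an inhibitor that also takes part in Mmp2 activation, measured 411, 378 and 394 CPM in control, 424, 414 and 418 CPM in LPS and 506, 483 and 409 CPM in RSBD libraries. Its differences from control were 0.08 ± 0.10 in LPS and 0.24 ± 0.10 in LPS+RSBD (adjusted p = 0.566 and 0.17), and the first of these took a negative sign on log2(TPM + 1).

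Timp1, the inhibitor best known as induced by inflammation, lies on chromosome X (20870166 to 20874735) and was scarce: 1.72, 7.10 and 3.35 CPM in control, 2.38, 5.68 and 3.71 CPM in LPS and 4, 7.87 and 3.09 CPM in RSBD libraries. Library 2 was the highest in each group, and the difference between LPS and control was -0.05 ± 0.54 (edgeR adjusted p = 0.959), with either sign under the alternatives. Timp4 measured 4.25 to 8.79 CPM over all libraries and differed by -0.37 ± 0.29 between LPS and control (adjusted p = 0.401). Timp1, Timp3 and Timp4 each lie within a synapsin gene on the opposite strand (Syn1, Syn3 and Syn2), and 21.3% of the exonic bases of Timp3 are shared with Syn3 models. The library kit keeps strand, per the labels' protocols, but whether the counting used it is not stated in the sources used here.

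**Figure D5:**
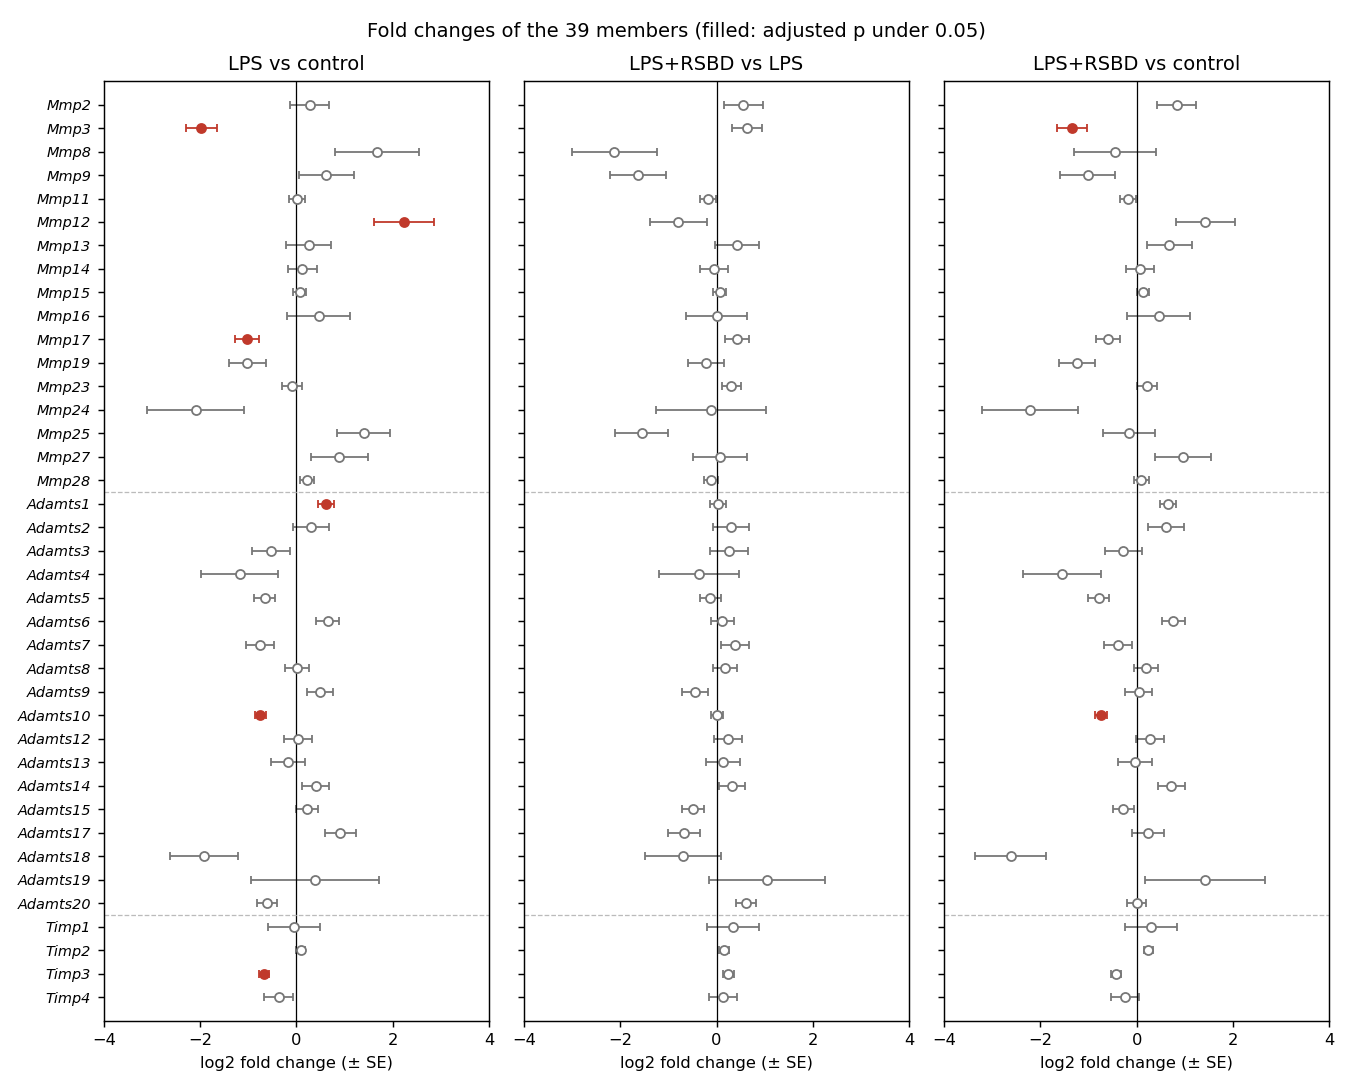
Log2 fold change ± SE of the 39 members in the 3 comparisons, with filled red points for an adjusted p under 0.05 and dashed lines between Mmp, Adamts and Timp genes. There are 6 filled points in LPS against control, 0 in LPS+RSBD against LPS and 2 in LPS+RSBD against control.

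RSBD brought no member past the threshold. Between LPS+RSBD and LPS lungs, edgeR called 0 of the 39 members, as did DESeq2 and limma on log2(TPM + 1), against 0% of all genes in edgeR, 159 genes in DESeq2 and 1 in limma. An unadjusted p under 0.05 was found for 5 members (12.8%, against 9.42% of all genes): Mmp8, Mmp9, Mmp25, Adamts20 and Timp3. In CPM the groups did not overlap for 1 member (2.56%), against 12.6% of all genes. The SE of these differences ran from 0.10 to 1.21 on the log2 scale with a median of 0.29.

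Between LPS+RSBD and control, Mmp3 and Adamts10 fell and 0 members rose. These 2 calls are 5.13% of the members, against 3.70% of all genes called in either direction and 1.80% called lower. An unadjusted p under 0.05 was found for 12 members (30.8%), against 22.7% of all genes, and the groups did not overlap for 11 members (28.2%), against 30.4%. The members' median difference was 0.04 and that of all genes 0.01. The values of the 6 members called in LPS against control can be set beside these, with the same control libraries in both: -1.98 and -1.34 for Mmp3, 2.23 and 1.43 for Mmp12, -1.02 and -0.59 for Mmp17, 0.62 and 0.65 for Adamts1, -0.75 and -0.74 for Adamts10, and -0.68 and -0.43 for Timp3.

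Genes that work with these families were followed through 6 lists, which held 74 tested genes. Between LPS and control 5 of them rose and 4 fell (12.2%, against 17.4% of all genes), between LPS+RSBD and LPS 0 were called, and between LPS+RSBD and control 1 rose and 1 fell (2.7%, against 3.70%). Of 7 ADAMTS-like proteins, which resemble ADAMTS enzymes but lack the protease part, Adamtsl4, a microfibril protein, fell in both comparisons with control. It measured 84.8, 92.3 and 90.5 CPM in control, 59.1, 45.4 and 54.7 CPM in LPS and 41.1, 44.4 and 53.3 CPM in RSBD libraries, changes of -0.75 ± 0.12 and -0.95 ± 0.12 (edgeR adjusted p = 0.00586 and 0.00899), both kept under all 19 alternatives. Control and treated libraries did not overlap for Adamtsl4, as for Adamts10. The same held for 38.0% of all genes in LPS against control and 30.4% in LPS+RSBD against control.

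Of 13 tested activators and clearance receptors, Cd44, the hyaluronan receptor that anchors Mmp9 on cells, rose by 0.72 ± 0.14 in LPS against control (edgeR adjusted p = 0.00954), from 200, 248 and 205 CPM to 405, 362 and 310 CPM. Of 10 other inhibitors, Serpinb2, an inhibitor of plasminogen activators, rose by 2.39 ± 0.63 (adjusted p = 0.0315), from 0.42, 0.38 and 0.75 CPM to 4.72, 2.16 and 1.31 CPM. Of 10 ADAM sheddases, membrane proteases related to ADAMTS, Adam28 fell by 0.71 ± 0.15 (adjusted p = 0.014), from 33.3, 39.4 and 40.6 CPM to 19.3, 24.3 and 25.9 CPM. Of 14 other matrix-degrading proteases 3 rose: the lysosomal proteases Ctss and Ctsd by 1.25 ± 0.31 and 0.70 ± 0.19 (adjusted p = 0.0292 and 0.0352) and the serine protease Htra1, named after its values were seen, by 0.56 ± 0.16 (adjusted p = 0.0411). Macrophages are rich in Ctss and Ctsd, whose highest library, at 628 and 1339 CPM, was LPS 2, as for Mmp12.

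Of 20 tested substrates, Lama5, a laminin chain of basement membranes, and Ncan, the proteoglycan neurocan, fell by 0.48 ± 0.15 and 1.85 ± 0.57 between LPS and control lungs (edgeR adjusted p = 0.0468 and 0.0493), and Ncan had at most 0.74 CPM. Lum, the collagen-binding proteoglycan lumican, rose in LPS+RSBD against control by 1.45 ± 0.28 (adjusted p = 0.0257), from 1.83, 3.06 and 1.85 CPM to 6.09, 7.49 and 4.87 CPM. The classic substrates of the enzymes named above, among them Eln, Vcan, Fn1, Col1a1, Col1a2 and Col3a1, were called in 0 comparisons. Calls were lost on leaving out 1 library for Serpinb2 (any control library, LPS 1 or LPS 2), Adam28 (control 2, control 3 or LPS 2), Ctss (control 1, control 2, LPS 2 or LPS 3), Ctsd (any control library, LPS 2 or LPS 3), Htra1 (the same libraries or RSBD 2), Lama5 (any library but LPS 1), Ncan (any but RSBD 1) and Lum (control 1, control 3, RSBD 1 or RSBD 2), with adjusted p of up to 0.176.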

How the data were processed

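RNA-seq of whole lung was used from 9 libraries in 3 groups of 3. The authors deposited estimated counts, whole numbers for 21930 genes, and TPM values, which sum to under 1e+06 per library. StringTie 2.2.0, HISAT2 2.2.1, fastp 0.23.2 and DESeq2 1.38.3, with the builds GRCm38 and mm10, were involved per the submitters' processing notes. The role of each tool and the counting step are not given in the sources used. The columns abbreviated RS were taken as the RSBD libraries by name. The counts were fitted with edgeR 4.0.16 in R 4.3.3 (TMM, robust quasi-likelihood, 2-sided, all groups in 1 fit, no covariates) after its filter by group with a count minimum of 10, which left 15636 genes. P-values were Benjamini-Hochberg adjusted over these genes, with a threshold of 0.05. The script was tested on simulated counts. Alternatives used DESeq2 1.42.0, limma 3.58.1 on log2(TPM + 1) or log2(TPM + 0.1), other scalings and filters, only the groups compared, a replicate block, and each library left out.

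Nothing in the labels says that libraries come from separate mice, so p-values measure only the spread between these samples. Totals of 26959662 to 36113905 counts limit the precision of members with few reads. Members and lists were chosen with earlier results of these data known. Every described member is named, and values in all libraries were planned for called members, the Timp genes and, per comparison, the 3 largest differences among members with a group mean of at least 1 CPM. Those of Mmp2, Mmp19, Mmp24, Adamts5, Adamts6, Adamts7, Adamts14, Adamts17 and Adamts20 were added after their values were seen. For partner genes, at most 2 called genes per list are named, with Htra1 added. Promoter sequences are from RefSeq, GRCm38.p6.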

Additional observations from a re-analysis of the deposited data

How the results depend on the processing

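Over 63 named results and 19 alternatives, 1027 of 1177 values kept their direction and side of the threshold, 109 lost the call, 22 gained one and 19 changed sign. Of 19 calls, 5 held in every alternative: Mmp3, Adamts10, Timp3 and Adamtsl4 in LPS against control, and Adamtsl4 in LPS+RSBD against control. The cause of the other changes was not tested, apart from fewer libraries in the fits that leave one out.

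The count of members called between LPS and control was 6 (17.4% of all genes called). It was 9 with DESeq2, which added Adamts5, Adamts17 and Adamts20 and called 24.6% of all genes, and 3 with limma on log2(TPM + 1) and 3 on log2(TPM + 0.1), each with a filter (14.3% of all genes). Leaving out 1 library gave 3 to 8, with 3 without control 2, control 3 or LPS 2. Between LPS+RSBD and LPS it was 0 throughout. Between LPS+RSBD and control it was 2 (3.7% of all genes called), against 6 of the 36 with an adjusted p in DESeq2 (11.7% of all genes) and 1 with upper-quartile factors, with no filter on low counts and in each of the 3 limma fits. Leaving out 1 library gave 0 to 3 there, with 0 without control 2 or RSBD 2.

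Sign changes were found for Timp1, Timp2, Timp4, Mmp8, Mmp19 and Mmp25, in differences that were not called. In LPS against control Timp1 was 0.00817 on log2(TPM + 0.1), and Timp2 was -0.00385 on log2(TPM + 1) with or without a filter and -0.00389 on log2(TPM + 0.1). Leaving out 1 library moved Timp1 from -0.402 to 0.632 in LPS against control, from -0.145 to 0.694 in LPS+RSBD against LPS and from -0.194 to 0.977 in LPS+RSBD against control. In LPS+RSBD against LPS it moved Timp4 from -0.0822 to 0.379 and Mmp19 from -0.406 to 0.0231. In LPS+RSBD against control it moved Mmp8 from -1.87 to 0.218 and Mmp25 from -0.503 to 0.108.

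Libraries of the same replicate number did not deviate together: their correlations were -0.215 to 0.122, against -0.164 to 0.19 for different numbers, and 1 of 9 libraries correlated best with its own number. The fit with a replicate block called 6 members between LPS and control, 0 between LPS+RSBD and LPS and 1 between LPS+RSBD and control, and gave 0.0644 for Timp1 in LPS against control.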
